A study of Mus musculus with 14 samples.

Results

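The glutathione peroxidase family was described in ovaries and uteruses of aged mice. The members were the 8 mouse genes named Gpx1 to Gpx8, of 21853 genes in all. They were chosen by name, with earlier results of these data known. All 8 were present in the table. RNA-seq had been carried out on 14 libraries, an ovary and a uterus library under each of 7 names, OC1 to OC3 and OT1 to OT4, from female C57BL/6J mice aged 28 weeks. Libraries of the same name were taken to come from 1 mouse, which the labels do not state. The old control group (OC, n = 3) received normal saline. The old treatment group (OT, n = 4) received conditioned medium of human amniotic membrane-derived mesenchymal stem cells (AMSC-CM), that is, the culture medium holding what these cells secrete, pooled from several donors and concentrated. It was given through the tail vein 6 times at intervals of 4 days, at 1 µL per g of body weight per dose. All mice of both groups had first received pregnant mare serum gonadotropin and then human chorionic gonadotropin to synchronize the estrous cycle, so no library shows an untreated cycle, and young mice were not analysed here. The OC group is a saline control, so conditioned medium from other cells was not compared. Whole organs were sequenced, in which fewer cells of a type and less RNA per cell cannot be told apart.

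Glutathione peroxidases reduce hydrogen peroxide and organic hydroperoxides to water and alcohols, most of them with glutathione as the electron donor. Glutathione reductase and NADPH then restore the oxidized glutathione. Some members carry selenocysteine at the catalytic position, which the ribosome inserts at a UGA codon that would otherwise stop translation, while the others carry cysteine there. GPX1 is the abundant enzyme of the cytosol and mitochondria, GPX2 is an epithelial enzyme best known from the gut, and GPX3 is secreted into plasma. GPX4 reduces phospholipid hydroperoxides in membranes and protects cells from ferroptosis, a form of death by lipid peroxidation. GPX5 is known from the epididymis and GPX6 from the olfactory epithelium. GPX7 and GPX8 lie in the endoplasmic reticulum, where they pass oxidizing equivalents from peroxide to protein folding.

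The codon at the catalytic position divides the family and is shown here because the selenocysteine and cysteine members are compared below. Each line gives the coding strand, 5′ to 3′, over 27 bases of the GENCODE M21 transcript with its position on GRCm38 (mm10), and the capitals mark the catalytic codon. The codon of Gpx1 to Gpx4 is the annotated selenocysteine, and that of Gpx5 to Gpx8 is the codon aligned with it.
Gpx1 (chr9:108339439-108339465, plus strand): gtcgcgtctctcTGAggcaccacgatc
Gpx2 (chr12:76795244-76795270, minus strand): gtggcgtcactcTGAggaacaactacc
Gpx3 (chr11:54907244-54907270, plus strand): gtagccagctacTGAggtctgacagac
Gpx4 (chr10:80054725-80054751, plus strand): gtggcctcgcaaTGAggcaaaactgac
Gpx5 (chr13:21291324-21291350, minus strand): gtggctacctatTGCggtctgacaatc
Gpx6 (chr13:21313765-21313791, plus strand): gtggcatccttcTGTggcctgacagct
Gpx7 (chr4:108403418-108403444, minus strand): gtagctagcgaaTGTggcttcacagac
Gpx8 (chr13:113045649-113045675, minus strand): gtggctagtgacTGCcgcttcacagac

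All 8 windows lie in coding exons. In Gpx1 the codon is number 47 of 201 and lies in exon 1 of 2, and in Gpx2 it is number 40 of 190 and lies in exon 1 of 2. The codon lies in exon 2 of 5 in Gpx3, Gpx5 and Gpx6, in exon 3 of 7 in Gpx4, and in exon 2 of 3 in Gpx7 and Gpx8. The window of Gpx2 was the closest to that of Gpx1, with 21 of 27 bases equal, and those of Gpx3 and Gpx7 shared the fewest with it, 13 of 27. The genes lie apart from each other except for Gpx5 (chr13:21286429-21292731) and Gpx6 (chr13:21312125-21319624), which are neighbours. Gpx2 (chr12:76792333-76795554) overlaps Fntb, and Gpx8 (chr13:113042753-113046410) overlaps Cdc20b, both on the opposite strand, and quantification used the strand. Gpx2 and Gpx4 each have an annotated processed copy, Gpx2-ps1 and Gpx4-ps2, so reads could have been divided between the gene and its copy.

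Before the members are described, the libraries were compared with markers of their tissues. Values are FPKM, in which the fragments of a gene are divided by its transcript length and by the size of the library, and which can be compared between genes because of the division by length. The summed FPKM of all genes was 374816 to 397644 in the ovaries, 430753 to 445048 in the OC uteruses and 425875 to 577494 in the OT uteruses, of which OT1 was the highest. The 12 ovary markers summed to 3548 to 4584 FPKM in the ovaries and to 8.79 to 24.5 FPKM in the uteruses, where Fshr and Zp3 were listed at 0 in every library. The 13 uterus markers summed to 3364 to 3752 FPKM in OC uteruses and to 3944 to 5832 FPKM in OT uteruses. In the ovaries they summed to 321.2 to 1101 FPKM, so the ovaries were not free of uterus marker RNA. Although their sums were higher in OT uteruses, the median log2 fold change of these markers there was -0.45. At an unadjusted limma p of at most 0.05, 2 of 13 were higher and 3 of 13 lower in OT uteruses. The uteruses of the groups thus differed in uterus markers too, and the part of this in the values of the members was not tested. The 15 adipocyte markers stood apart in OT mice, above all in the uterus of OT1, and their values are given beside results from the same libraries.

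Across the family, the most abundant members were Gpx1 and Gpx3, and 6 of 8 members were measured in every library. The 8 members together reached 1041 ± 5.66 FPKM (SD, n = 3) in OC ovaries, 1083 ± 84.3 (n = 4) in OT ovaries, 1390 ± 130 (n = 3) in OC uteruses and 1824 ± 387 (n = 4) in OT uteruses. By mean FPKM, Gpx1, Gpx3 and Gpx4 lay between percentiles 98.6 and 99.8 of all genes in both tissues. Gpx8 lay at percentile 93.1 in ovary and 96.2 in uterus, and Gpx7 at 82.6 and 81.1. Gpx2 was the member whose rank differed most between the tissues, at percentile 48.9 in ovary and 86.3 in uterus. Gpx5 was listed at 0 in all 14 libraries. Gpx6 was listed above 0 only in the ovaries of OC2, at 0.12 FPKM, and OC3, at 0.32 FPKM. These members therefore fell under the minimum of 0.5 FPKM and were not tested.

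**Figure D1:**
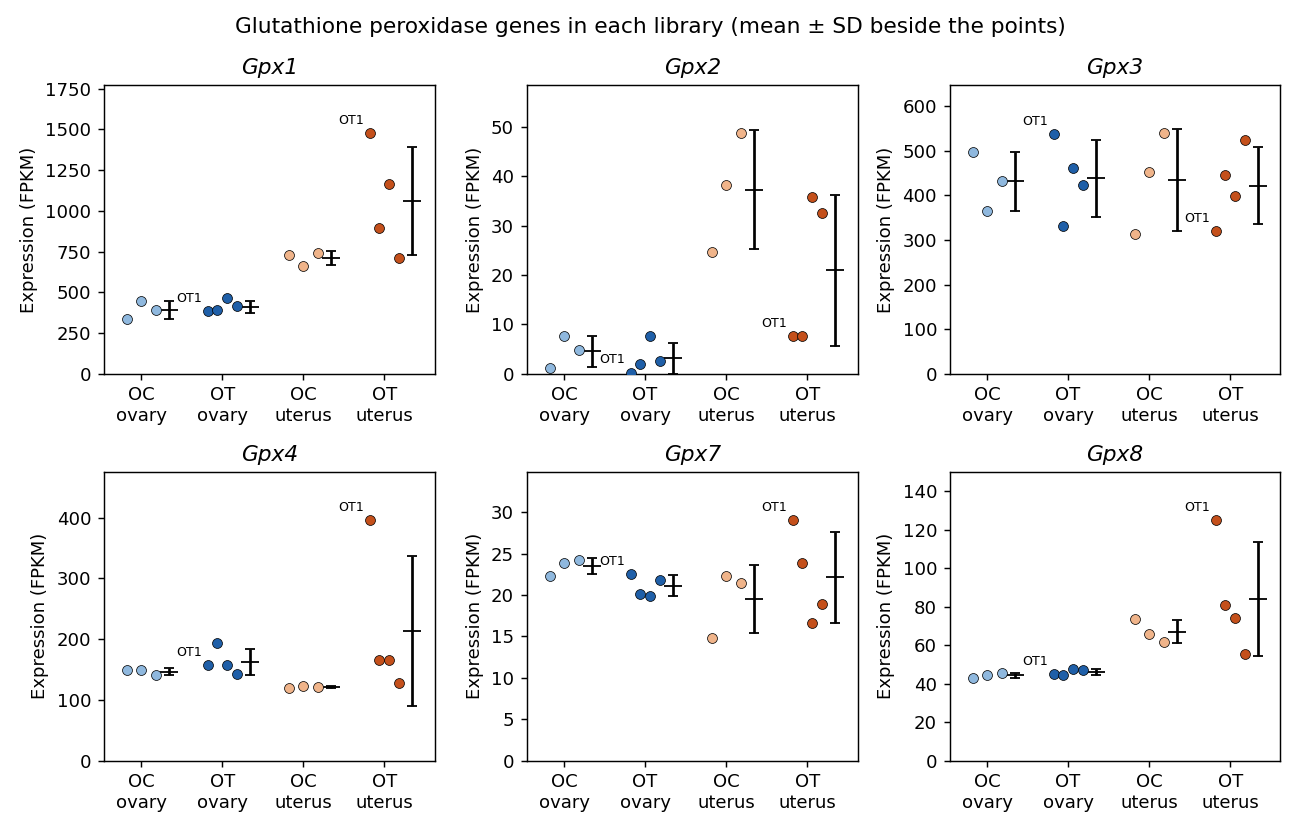
Expression of the 6 measured glutathione peroxidase genes in FPKM (vertical axis, starting at 0, scale differs between panels) in each library of the 4 groups; points are libraries and the bar beside them is the mean ± SD (n = 3 OC, n = 4 OT). The OT1 uterus is the highest library for Gpx1, Gpx4, Gpx7 and Gpx8, and Gpx2 is low in every ovary.

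The order of the levels differed between the tissues. In ovaries Gpx3 came first with a mean of 435 FPKM and Gpx1 second with 403 FPKM over the 7 libraries, and the ranges of these neighbours overlapped in both groups. Gpx4 followed at 155 FPKM, Gpx8 at 45.2, Gpx7 at 22.1 and Gpx2 at 3.73, and none of these neighbours overlapped in range within a group. In OC uteruses the order was Gpx1, Gpx3, Gpx4, Gpx8, Gpx2 and Gpx7, with no overlap between neighbours. In OT uteruses Gpx3 and Gpx4 overlapped, because Gpx4 reached 396.3 FPKM in OT1, and so did Gpx7 and Gpx2. The selenocysteine members thus held the first 3 places in each group, and the remaining selenocysteine member, Gpx2, held the last measured place in ovary and stood beside Gpx7 in uterus.

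Shares of the family sum showed the same difference in makeup. Gpx1 gave 37.6% ± 5.48 of the family's FPKM in OC ovaries and 51.4% ± 5.13 in OC uteruses (SD, n = 3). Gpx3 gave 41.4% ± 6.10 in OC ovaries and 30.9% ± 5.69 in OC uteruses. Gpx4 gave 14.1% ± 0.518 and 8.76% ± 0.764, respectively. In OT mice, Gpx1 gave 38.2% ± 3.13 in ovary and 57.3% ± 6.89 in uterus, and Gpx3 gave 40.2% ± 5.36 and 24.6% ± 9.34 (SD, n = 4). Gpx2 made up at most 0.734% of the family in any ovary and between 0.328% and 3.18% in the uteruses. The members of the endoplasmic reticulum were a small and even share, at 4.26% to 4.88% on average for Gpx8 and 1.22% to 2.26% for Gpx7 in the 4 groups.

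**Figure D2:**
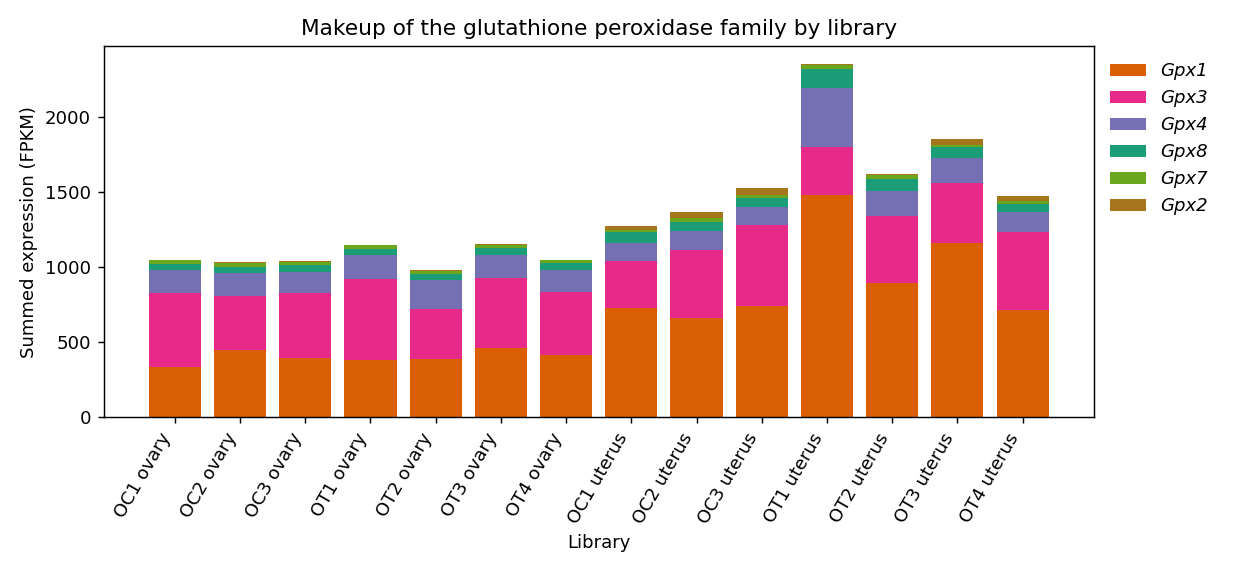
Stacked bars of the FPKM of 6 glutathione peroxidase genes (vertical axis, FPKM) in each of the 14 libraries (horizontal axis). The ovary bars are of like height (979 to 1157 FPKM in all), the uterus bars are taller through Gpx1, and the OT1 uterus reaches 2355 FPKM.

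The tissues were compared, and Gpx1, Gpx2 and Gpx8 were higher in the uterus of 7 of 7 mice when libraries were paired by name. The fit behind the adjusted p did not use the pairing, whereas the exact test and the ratios within a mouse rest on it. A gene was called here at a Benjamini-Hochberg adjusted p under 0.05 and a log2 fold change of 1 or more in size, which 19.6% of 14557 tested genes met, while 52.9% had an adjusted p under 0.05 alone. Against this background, 2 of 6 measured members were called, and 3 of 6 had an adjusted p under 0.05. The median log2 fold change of all genes was 0.00 (-0.004).

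Gpx1 was the most abundant member that differed. In the ovaries it measured 334.9, 444.6 and 393.8 FPKM in OC1 to OC3 and 384.1, 388.9, 463.7 and 414.1 FPKM in OT1 to OT4. In the uteruses it measured 730.3, 662.4 and 738.7 FPKM in OC mice and 1477, 894, 1162 and 712.0 FPKM in OT mice. Every uterus was above every ovary. The log2 fold change was 1.09 (SE 0.14, 2.13-fold), with a limma adjusted p of 3.11e-05 and an exact two-sided permutation p of 0.0156 over the 7 mice, which is the smallest that 7 pairs allow. The uterus to ovary ratio was 1.49 to 2.18 in the OC mice, and the highest, 3.85, was that of OT1. Without the OT1 mouse the log2 fold change was 0.99, just under the cutoff of 1.

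Gpx2, the epithelial member, had the widest gap between the tissues. It measured 1.26, 7.59 and 4.75 FPKM in the OC ovaries and 0.27, 1.93, 7.68 and 2.63 FPKM in the OT ovaries. In the uteruses it measured 24.7, 38.2 and 48.7 FPKM in OC mice and 7.71, 7.68, 35.9 and 32.5 FPKM in OT mice. The values of the tissues met at a single level, where the OT3 ovary was as high as the OT1 and OT2 uteruses. The log2 fold change was 3.15 (SE 0.64, 8.90-fold, limma adjusted p = 0.00104), and the ratio within a mouse ranged from 3.98 in OT2 to 28.6 in OT1.

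Gpx8, a membrane protein of the endoplasmic reticulum, was the third member above its ovary level in all mice. Its ovary values were the most even of the family, at 43.0, 44.6 and 45.5 FPKM in OC and 44.8, 44.5, 47.5 and 46.8 FPKM in OT mice. The uteruses measured 73.6, 66.0 and 61.4 FPKM in OC and 125.1, 81.0, 74.1 and 55.6 FPKM in OT mice. The groups of values did not overlap. The log2 fold change of 0.70 (SE 0.14, 1.62-fold) had a limma adjusted p of 0.000733 and stayed under the cutoff of 1, and the ratio was 1.35 to 1.71 in OC mice and 1.19 to 2.79 in OT mice.

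The remaining measured members gave no tissue difference past the test. Gpx3, the secreted member, differed by -0.03 on the log2 scale (95% confidence interval -0.37 to 0.30) and was higher in the uterus of 4 of 7 mice. Gpx4 differed by -0.01 (-0.43 to 0.42) and was higher in the uterus of 2 of 7 mice, OT1 with a ratio of 2.53 and OT3 with 1.05. Gpx7 differed by -0.13 (-0.40 to 0.15) and was higher in the uterus of 2 of 7 mice. Equal levels were not shown by these intervals. The codon class did not divide the result, since the members higher in uterus were 2 of the 4 measured selenocysteine genes and 1 of the 2 measured cysteine genes.

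**Figure D3:**
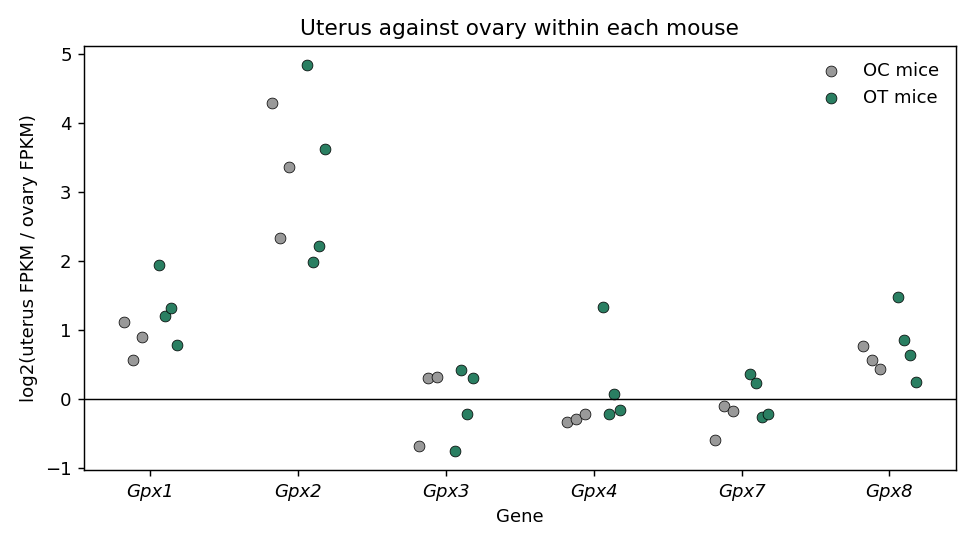
Ratio of uterus to ovary FPKM within each mouse on a log2 scale (vertical axis) for 6 glutathione peroxidase genes; points are mice (grey OC, n = 3; green OT, n = 4) and the line at 0 marks equal levels. All 7 points lie above 0 for Gpx1, Gpx2 and Gpx8, while Gpx3, Gpx4 and Gpx7 have points on both sides.

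The levels of Gpx2 in the ovaries ran in part with uterus markers. The 13 uterus markers summed to 454.7, 1101 and 664.3 FPKM in the ovaries of OC1 to OC3 and to 321.2, 681.8, 834.0 and 873.9 FPKM in those of OT1 to OT4, none being listed at 0 throughout. The lowest ovary for Gpx2, OT1, was also the lowest for these markers, and the highest ovaries, OC2 and OT3, were the first and the third for them. OT4 came between OC2 and OT3 for these markers, at 873.9 FPKM, but had Gpx2 at 2.63 FPKM. Hoxa10, a homeobox gene of the developing and adult uterus, is 1 of these markers and also 1 of the 5 genes picked below for their likeness to Gpx2, so it is no separate support, and it measured 3.92, 53.4 and 27.7 FPKM in the OC ovaries and 0.57, 6.09, 48.9 and 23.4 FPKM in the OT ovaries. The 6 oviduct and ciliated cell markers summed to 512.4 to 1033 FPKM in the ovaries. They were lowest in OT1, but measured 942.6 FPKM in OC1, where Gpx2 was at 1.26 FPKM, and 631.4 FPKM in OT3, where Gpx2 was at 7.68 FPKM. The 6 epithelium markers were lowest in OT1, at 129.6 FPKM, and highest in OC2, at 215.8 FPKM. They too were higher in OC1, at 189.3 FPKM, than in OT3, at 155.1 FPKM. The part of adjoining tissue in the ovarian Gpx2 values was not tested.

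Because Gpx2 varied most among the members, the genes most like it were listed in each tissue. Over the 7 ovaries, the 5 tested genes with the highest Pearson r to Gpx2 on log2(FPKM + 0.1) were Plekhg2 (r = 0.994), Rgs2 (0.984), Hoxa10 (0.983), Add3 (0.983) and Trnp1 (0.975), and 249 of 14414 genes had an r of at least 0.9. Over the 7 uteruses they were Fto (0.992), Flt1 (0.990), Edn3 (0.981), Shank3 (0.980) and Extl3 (0.980), with 160 of 14150 genes at an r of at least 0.9. No gene was in both sets of 5. With 7 libraries that share their mice and 2 treatments, these correlations only describe which genes had a similar order of values.

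**Figure D4:**
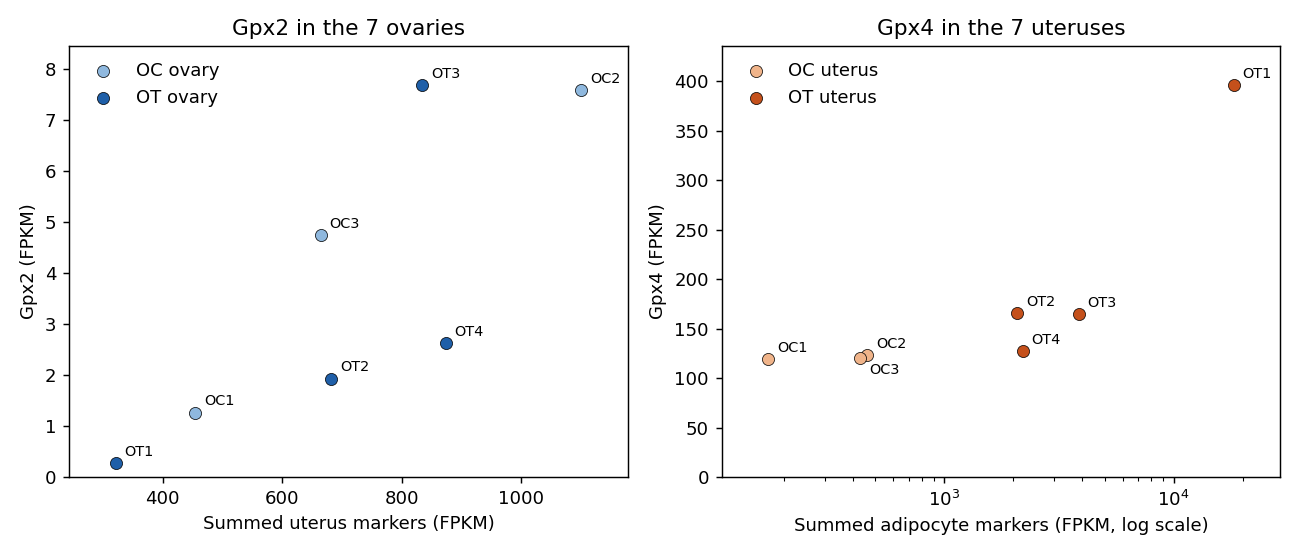
Left, Gpx2 in the 7 ovaries (vertical axis, FPKM) against the sum of 13 uterus markers (horizontal axis, FPKM); right, Gpx4 in the 7 uteruses (vertical axis, FPKM) against the sum of 15 adipocyte markers (horizontal axis, FPKM on a log scale); points are single libraries coloured by group. The OT1 ovary is lowest for both measures on the left, and the OT1 uterus is highest for both on the right, at 396.3 FPKM of Gpx4.

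AMSC-CM and saline were then compared in the ovary, where no member differed past the test. At an unadjusted limma p of at most 0.05, 0 of 6 measured members were called, against 4.51% of 14415 genes, 2.60% higher and 1.91% lower in OT. No gene of the whole table reached an adjusted p under 0.05, the smallest being 0.477. No member had OT values wholly above OC values, which 2.78% of genes had. The median log2 fold change of all genes was -0.01.

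The widths of the intervals were not ordered by abundance, and Gpx3, the most abundant, had a wider one than Gpx1, Gpx4, Gpx7 and Gpx8. Gpx1 averaged 391 ± 54.9 FPKM in OC (SD, n = 3) and 413 ± 36.5 FPKM in OT ovaries (n = 4), a log2 fold change of 0.08 (SE 0.11, 95% confidence interval -0.17 to 0.34). Gpx8 had the narrowest interval, with a log2 fold change of 0.05 (SE 0.06, -0.08 to 0.18). Gpx4 measured 148.9, 149.9 and 140.4 FPKM in OC and 156.7, 192.9, 156.6 and 141.8 FPKM in OT ovaries. OT4 lay among the OC values and OT2 was the highest, and the log2 fold change was 0.14 (SE 0.10, -0.09 to 0.37). Gpx3 measured 495.8, 364.2 and 431.9 FPKM in OC and 537.1, 330.5, 461.1 and 421.9 FPKM in OT ovaries, with the OT values on both sides of the OC range, and its log2 fold change was 0.01 (SE 0.17, -0.37 to 0.40).

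Gpx7, which assists oxidative folding, came nearest to the cutoff in the ovary. It measured 22.4, 23.9 and 24.2 FPKM in OC and 22.6, 20.2, 19.9 and 21.9 FPKM in OT ovaries. In OT2, OT3 and OT4 it was below all OC ovaries, and OT1 was within their range. The log2 fold change was -0.15 (SE 0.07, -0.32 to 0.01), with an unadjusted limma p of 0.0679 and an exact two-sided permutation p of 0.114. Without OT1 the log2 fold change was -0.18 and the unadjusted limma p 0.0422. Gpx2 gave the least precise estimate, -0.89 (SE 0.96, -3.09 to 1.31), and with 1 library left out it ranged from -1.61 without OC1 to -0.08 without OT1, being -1.54 without OT3 and -0.36 without OC2.

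In the uterus, Gpx1 and Gpx4 had higher means and Gpx2 a lower mean in OT mice, but no member passed the test. At an unadjusted limma p of at most 0.05, 0 of 6 measured members were called, against 8.20% of 14151 genes, 5.15% higher and 3.05% lower in OT. The smallest adjusted p in the table was 0.266. The median log2 fold change of all genes was 0.01.

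Gpx4, the membrane hydroperoxide enzyme, had the only groups that did not overlap. It measured 119.1, 123.4 and 120.8 FPKM in OC uteruses and 396.3, 165.7, 165.0 and 127.6 FPKM in OT uteruses. All 4 OT uteruses were above the OC uteruses, OT4 by little and OT1 by far. A whole gap in this direction was found for 1 of 6 members and for 6.46% of all genes. The log2 fold change was 0.67 (SE 0.35, 95% confidence interval -0.13 to 1.47), with an unadjusted limma p of 0.0906, an adjusted p of 0.623 and an exact two-sided permutation p of 0.0571, the smallest that 3 against 4 libraries allow. Without OT1 the log2 fold change fell to 0.32 and its unadjusted limma p was 0.0343, so a smaller difference with less spread passed the cutoff of 0.05.

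Gpx1 was above the OC range in 3 of the 4 OT uteruses, while OT4 at 712.0 FPKM lay within it. Its mean was 710.5 ± 41.8 FPKM in OC (SD, n = 3) and 1061 ± 333 FPKM in OT uteruses (n = 4), a log2 fold change of 0.53 (SE 0.25, -0.05 to 1.11, unadjusted limma p = 0.0694, exact two-sided permutation p = 0.171). Without OT1 it was 0.35. Gpx8 had a log2 fold change of 0.27 (SE 0.25, -0.31 to 0.85), which fell to 0.05 without OT1. Gpx7 measured 14.8, 22.3 and 21.5 FPKM in OC and 29.1, 23.8, 16.6 and 19.0 FPKM in OT uteruses, with overlapping groups and a log2 fold change of 0.17 (SE 0.23, -0.36 to 0.70).

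Gpx2 and Gpx3 had estimates below 0 in the uterus, and no member was tested against another. For Gpx2, OT1 and OT2 at 7.71 and 7.68 FPKM were below every OC uterus, while OT3 and OT4 at 35.9 and 32.5 FPKM were inside the OC range of 24.7 to 48.7 FPKM. The log2 fold change was -1.14 (SE 0.61, -2.55 to 0.28, unadjusted limma p = 0.101, exact two-sided permutation p = 0.229). The uteruses of OT1 and OT2 were also the highest for the 7 macrophage markers, with 542.9 and 740.9 FPKM summed against 252.4 to 281.8 FPKM in the other 5 uteruses, for the 7 urothelium markers, with 227.3 and 82.1 FPKM against 14.2 to 23.5 FPKM, and for the 6 B and plasma cell markers, with 41.2 and 106.1 FPKM against 7.37 to 16.9 FPKM. At an unadjusted limma p of at most 0.05, 2 of 7, 1 of 7 and 4 of 6 of these markers, respectively, were higher in OT uteruses. The B and plasma cell markers Cd79b, Jchain and Mzb1 are among the genes that the study had reported as higher in OT from these libraries. Their count is therefore no separate support. The 6 epithelium markers summed to 249.9 and 362.1 FPKM in these uteruses, within the 190.9 to 374.1 FPKM of the others. The part of these cells in the Gpx2 values was not tested. Gpx3 measured 312.0, 451.7 and 539.0 FPKM in OC and 320.0, 445.3, 397.2 and 524.1 FPKM in OT uteruses, all OT values lying within the OC range, with a log2 fold change of -0.03 (SE 0.24, -0.58 to 0.52).

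**Figure D5:**
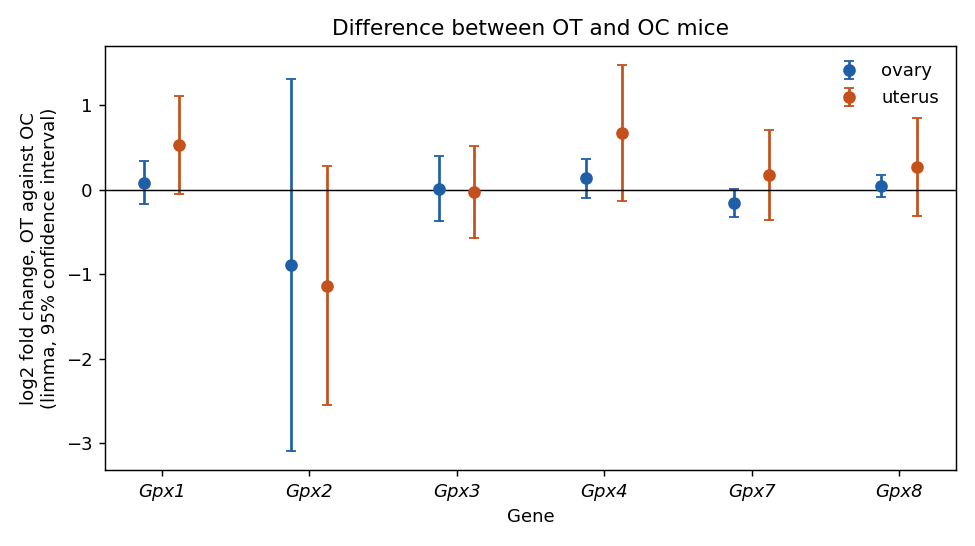
Log2 fold change of OT against OC (vertical axis, limma on log2(FPKM + 0.1)) for 6 glutathione peroxidase genes in ovary (blue) and uterus (orange); points are estimates and bars 95% confidence intervals (3 OC and 4 OT libraries per tissue). Every interval includes 0, the narrowest being Gpx8 in ovary and the widest Gpx2 in ovary.

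The uterus of OT1 set the size of several of these differences. Against the OC mean on the log2 scale, it was higher by 1.71 for Gpx4, 1.06 for Gpx1, 0.90 for Gpx8 and 0.60 for Gpx7, and it differed by -0.40 for Gpx3 and -2.20 for Gpx2. In OT4 the same differences were 0.08 for Gpx4, 0.00 (0.005) for Gpx1, -0.26 for Gpx8 and -0.02 for Gpx7. The 15 adipocyte markers, none listed at 0, summed to 170.2, 461.1 and 428.5 FPKM in the OC uteruses and to 18300, 2078, 3851 and 2195 FPKM in the OT uteruses. By limma, 15 of 15 were higher in OT at an unadjusted p of at most 0.05. Most of them are among the genes that the study had reported as higher in OT in both organs, from these same libraries. Their counts in uterus and ovary are therefore no separate support. Adipoq, the adipocyte hormone adiponectin, measured 8.40, 26.8 and 28.6 FPKM in OC and 777, 117, 251 and 133 FPKM in OT uteruses. Plin1, a coat protein of the fat droplet, measured 1.99, 6.63 and 4.35 FPKM in OC and 370.1, 35.1, 72.7 and 36.2 FPKM in OT uteruses. The order of the OT uteruses for Gpx1 was OT1, OT3, OT2 and OT4, and OT1 and OT3 were also the highest for adipocyte markers. The 14 squamous epithelium markers, of which 8 of 12 tested were higher in OT and Sprr3 was listed at 0 throughout, summed to 13.6 to 26.0 FPKM in OC and 71.6 to 972.8 FPKM in OT uteruses. Krt5 reached 299.2 FPKM in OT3, and Trp63 10.1 FPKM. The 6 erythrocyte markers summed to 1233 FPKM in OT1 and to 136.9 to 444.6 FPKM in the other uteruses. The part of these cell types in the values of Gpx1, Gpx4, Gpx7 and Gpx8 was not tested.

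The ovaries held adipocyte markers unevenly too, at 299.0 to 469.9 FPKM in OC and at 2844, 2045, 370.6 and 747.1 FPKM in OT1 to OT4, with 9 of 15 markers higher in OT. Gpx4 was highest in the ovary of OT2, at 192.9 FPKM, and measured 156.7 FPKM in that of OT1. The ovary of OT2 was also the highest for the 6 B and plasma cell markers, with 108.8 FPKM summed against 8.81 to 19.6 FPKM in the other ovaries, and for the 7 macrophage markers, with 347.3 FPKM against 203.3 to 334.5 FPKM. Of the macrophage markers 4 of 7, and of the B and plasma cell markers 0 of 6, were higher in OT ovaries by limma at an unadjusted p of at most 0.05. Gpx1 in the ovaries of OT1 and OT2, at 384.1 and 388.9 FPKM, was lower than in OT3 and OT4. The part of these cell types in the ovarian values was not tested.

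The effect of AMSC-CM was also compared between the tissues in a fit of all 14 libraries, and 0 of 6 members were called at an unadjusted p of at most 0.05, against 5.12% of 14557 genes. The difference of the OT effect, uterus minus ovary on the log2 scale, was 0.53 (95% confidence interval -0.31 to 1.38) for Gpx4, 0.44 (-0.18 to 1.07) for Gpx1 and 0.32 (-0.22 to 0.87) for Gpx7. It was 0.22 (-0.37 to 0.80) for Gpx8, -0.04 (-0.71 to 0.63) for Gpx3 and -0.25 (-3.01 to 2.51) for Gpx2. The smallest unadjusted limma p was that of Gpx1, 0.149. A difference between the tissues in the response of a member was therefore not shown. The ovary and uterus comparisons share their mice if the names mark mice.

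The other genes of the pathway were read from 7 lists, each against the share of all genes called. This share was 4.51% for OT against OC in ovary, 8.20% in uterus and 19.6% between tissues. The lists were also chosen with earlier results of these data known, so their counts describe the pathway and do not test it. Selenium supply and the insertion of selenocysteine serve Gpx1 to Gpx4. In ovary, 1 of 14 tested genes of this list was called, Sephs2, which makes the selenium donor and is itself a selenoprotein (19.7 ± 1.35 FPKM in OC, 23.2 ± 2.39 in OT, log2 fold change 0.23). This call was lost without OC1, without OT2, with a block for the replicate number and in the fit of all 14 libraries. In uterus, 2 of 13 were called, both higher in OT, Selenbp1 (0.55), a selenium binding protein, and Trnau1ap (0.50), which binds the selenocysteine tRNA. The median log2 fold change of the list was -0.03 in ovary and 0.15 in uterus. Between tissues, Lrp8, a receptor for the selenium carrier SELENOP, was the only gene of the list called, 1 of 14 against 19.6% of all genes. It averaged 15.1 FPKM in the ovaries of both groups, and 0.114 FPKM in OC and 0.465 FPKM in OT uteruses, where it was under the minimum and at 0 in at least 1 library, so no fold is given for a gene that was tested through its ovary level.

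Of the other selenoproteins, 1 of 19 tested genes was called in ovary, again Sephs2, and 3 of 18 in uterus. These were Txnrd3 (log2 fold change 0.55), a thioredoxin reductase, Msrb1 (0.49), which repairs oxidized methionine, and Dio2 (-1.17), which activates thyroid hormone. The count of genes higher in OT uteruses was 0 without OC1, OC2, OC3, OT1 or OT3. It was 2 without OT2, 4 without OT4 and 5 in the fit of all 14 libraries. Dio2 averaged 35.8 ± 6.27 FPKM in OC and 17.0 ± 8.94 FPKM in OT uteruses. Between tissues 4 of 18 were called, against 19.6% of all genes. All 4 were higher in uterus, with log2 fold changes of 2.32 for Dio3, which inactivates thyroid hormone, 2.31 for Dio2, 1.89 for Msrb1 and 1.16 for Selenow.

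Among 19 genes of glutathione synthesis, uptake and turnover, 0 were called in ovary by limma at an unadjusted p of at most 0.05, with a median of -0.04. In uterus 4 were called. Ggt5, a glutamyltransferase, was higher in OT (0.41), while Cbs, the first enzyme from homocysteine to cysteine (-1.16), Slc1a1, a transporter of glutamate and cysteine (-1.14), and Ggt6 (-0.85) were lower. Cbs averaged 37.8 ± 13.0 FPKM in OC and 17.7 ± 7.36 FPKM in OT uteruses. Between tissues 5 of 19 were called, against 19.6% of all genes. The peptidases Anpep (2.16) and Dpep1 (1.80), Slc1a1 (1.78) and Ggt6 (1.77) were higher in uterus, and Ggct (-1.03), which breaks down glutamyl peptides, was lower.

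For the return of glutathione to its reduced form and the supply of NADPH, 17 of 18 listed genes were in the table. In ovary 0 of 17 were called (limma, unadjusted p of at most 0.05; median 0.03), and in uterus 2 of 17, Aldh1l1 of folate metabolism (1.77) and the mitochondrial isocitrate dehydrogenase Idh2 (0.47), both higher in OT. The uterus median was 0.38, and 14 of 17 were above 0. The adipocyte markers given above were also higher in OT uteruses, 15 of 15, and highest in OT1. They were not set beside this list library by library, and their part in it was not tested. Between tissues 4 of 17 were called, all lower in uterus, with log2 fold changes of -4.16 for the malic enzyme Me1, -3.65 for the cytosolic isocitrate dehydrogenase Idh1, -1.85 for Mthfd2 and -1.34 for Aldh1l1. The share of all genes called in this comparison was 19.6%. At an unadjusted limma p of at most 0.05, 9 of 17 were lower and 3 of 17 higher in uterus, and 5 of 17 had a log2 fold change above 0. The list was not tested against Gpx1.

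Genes around the role of GPX4 in lipid peroxidation gave few calls between OT and OC. In ovary 1 of 22 was called, against 4.51% of all genes. It was Dhodh of pyrimidine synthesis, higher in OT (log2 fold change 0.25, 6.91 ± 0.199 FPKM in OC and 8.25 ± 0.483 in OT). The count of genes higher in OT was 0 without OC2, OT1 or OT2 and in the fit of all 14 libraries, and 2 without OT3 or OT4. In uterus 2 of 22 were called, against 8.20% of all genes, and both were higher in OT. These were Aifm2, which reduces ubiquinone at membranes (1.30, 8.55 ± 0.694 FPKM in OC and 25.1 ± 18.9 in OT), and the cytochrome P450 reductase Por (0.58). Between tissues 6 of 22 were called, against 19.6% of all genes. The lipoxygenases Alox15 (1.54), Alox5 (1.53) and Alox12e (1.42) were higher in uterus, and Gch1 of tetrahydrobiopterin synthesis (-3.46), the haem oxygenase Hmox1 (-1.61) and Acsl4 (-1.57), which activates polyunsaturated fatty acids, were lower. Gpx4 itself did not pass that test.

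The folding machinery of the endoplasmic reticulum, in which GPX7 and GPX8 work, was called lower in OT ovaries for 4 of 16 tested genes. These were the chaperone Hspa5 (log2 fold change -0.38, 395.6 ± 19.3 FPKM in OC and 306.0 ± 46.8 in OT), the disulfide isomerases Pdia5 (-0.27) and Pdia6 (-0.17), and the oxidase Ero1lb (-0.27). The list median was -0.13 and 1 of 16 genes was above 0. Gpx7 had its value of -0.15 in the same comparison, and Gpx8 0.05. The count rested on single libraries, since it was 0 without OC1, 2 without OC3, OT1, OT3 or OT4, and 6 without OT2, and it was 0 in the fit of all 14 libraries. In the same comparison 9 of 15 adipocyte markers and 4 of 7 macrophage markers were higher in OT, and their part in this count was not tested. In uterus 1 of 16 was called, Qsox2 (0.52), a sulfhydryl oxidase, and the median was 0.02. Between tissues 2 of 16 were called, against 19.6% of all genes. These were Pdia4 (-1.08) and Hspa5 (-1.05), lower in uterus, whereas Gpx8 was higher.

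The other enzymes that remove peroxide or superoxide, or transfer glutathione to oxidized lipids, were 15 genes. In ovary 0 of 15 were called (limma, unadjusted p of at most 0.05; median 0.07). In uterus 5 of 15 were called, all higher in OT, against 5.15% of all genes, and all 15 had a log2 fold change above 0 with a median of 0.45. The 4 called genes of largest change were Mgst2 (2.85) and Gsta4 (1.49), which act on lipid products, the extracellular superoxide dismutase Sod3 (1.86) and catalase, Cat (1.33). Mgst2 was low in OC uteruses, at 0.585 ± 0.522 FPKM with a library at 0, so its fold is uncertain. Cat averaged 33.4 ± 1.94 FPKM in OC and 105 ± 90.6 FPKM in OT uteruses. The study had itself reported catalase as higher in OT uteruses from these libraries, so its call is no separate support. Gpx1 and Gpx4, with 0.53 and 0.67, lay above the median of this list, and Gpx2, Gpx3, Gpx7 and Gpx8 below it. The count was 2 without OC1, 3 without OC2 or OC3 and 8 without OT4, and it was 9 in the fit of all 14 libraries. The adipocyte markers given above were also higher in OT uteruses, and their part in this count was not tested. Between tissues 4 of 15 were called, against 19.6% of all genes. All 4 were lower in uterus, namely Mgst2 (-4.93), Sod3 (-1.40), Prdx3 (-1.27) and Mgst1 (-1.24). The size for Mgst2 rests on the low OC uterus values given above and is likewise uncertain.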

How the data were processed

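The deposited values were FPKM per gene. The authors made them from strand-specific libraries of total RNA depleted of rRNA, trimmed with Skewer, aligned by STAR 2.5 (build mm10) and summarised per gene by Cufflinks 2.2.1 with its strand option, and used Cuffdiff to compare groups. The reads were not used here and the FPKM did not step by whole reads, so library depth is unknown, no counting interval could be given, and a value of 0 may be a failed estimate. Labels assigned each library to its group and name (OC1 to OT4). All 21853 gene identifiers matched GENCODE M21, 48 of them sharing a symbol with another gene, and 3380 genes were at 0 in every library.

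The FPKM were not scaled further. The limma package 3.58.1 (R 4.3.3, lmFit and trended eBayes, two-sided) was run on log2(FPKM + 0.1) of the genes whose mean reached 0.5 FPKM, so fold changes of low genes are understated. OT was compared with OC within each tissue and called at an unadjusted p of at most 0.05, with the Benjamini-Hochberg adjusted p over all tested genes beside it. The tissues, and the OT effect between them, were compared in a fit of 4 groups, with an adjusted p under 0.05 and a log2 fold change of 1 or more in size for tissue calls. Single members also had an exact two-sided permutation test over libraries or mice. Within a tissue, the p-values set a difference against the spread between libraries of different mice of this series. The fit of 4 groups treated the 14 libraries as independent, although those of the same name were taken to come from 1 mouse. The fit was checked on simulated data, and other steps used Python 3.11.15 with numpy 2.4.6, pandas 2.3.3, scipy 1.17.1 and matplotlib 3.10.9. Transcript windows were read from GENCODE M21 with Biopython 1.88.

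The members and gene lists were chosen with earlier results of these data known. All 8 members were named. Of the lists, at most 4 called genes per list and direction were named by size of change; markers given singly were Adipoq, Plin1, Krt5 and Trp63, and Hoxa10 as a gene named for likeness. For the member with the largest SD, the 5 genes of highest Pearson r were named. Ovary and uterus libraries carry the same names and were taken as the same mice, which the labels do not state. The deviations of such pairs from their group means correlated at 0.074 to 0.254 over genes, with 2 of 7 pairs under 0.1. Ovary and uterus pairs of different names within OC or within OT correlated at -0.235 to 0.248, so the ranges overlapped. A block for the mouse changed no call between tissues. Alternatives were other pseudocounts, filters, scalings and fits, a block for the replicate number, and leaving out each library. Comparison by Cuffdiff was not run.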

Additional observations from a re-analysis of the deposited data

Results flagged for a closer look

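Of 12 groups of 4 libraries examined for a library far from the others, 1 held such a library, and chance alone picks out about 1 in 20 groups. It was Gpx4 in the OT uteruses, where OT1 measured 396.3 FPKM and the other 3 measured 127.6 to 165.7 FPKM. The same uterus was the highest for summed adipocyte (18300 FPKM), erythrocyte (1233 FPKM) and urothelium markers (227.3 FPKM). It was not the highest for macrophage, B and plasma cell or squamous epithelium markers. The OT4 uterus, with Gpx4 at 127.6 FPKM, had 2195 FPKM of adipocyte markers. The part of these cell types in the Gpx4 values was not tested.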

How the results depend on the processing

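Over all alternatives, 336 values of single measured members kept their direction and their side of the cutoff, 22 changed direction, 13 newly passed and 1 no longer passed, and none of the changes came from another pseudocount, scaling, robust estimate or stricter filter. The count of members called in OT against OC was 0 in ovary and became 1 with no filter on low values (Gpx6, above 0 in only 2 OC ovaries, so that no fold is given). It was 0 to 1 when 1 library was left out (Gpx7 without OT1). In uterus the count was 0 and became 2 in the fit of all 14 libraries (Gpx1 and Gpx4), and 0 to 3 with 1 library left out: Gpx4 without OT1, Gpx2 without OT3, and Gpx1, Gpx2 and Gpx4 without OT4. With the replicate block it was 4 in uterus (Gpx1, Gpx2, Gpx4 and Gpx8) and 0 in ovary. OC and OT libraries of the same number come from different mice. Their deviations correlated at 0.331, 0.045 and 0.080 in ovary and 0.080, 0.001 and -0.027 in uterus. OC and OT pairs of different numbers correlated at -0.382 to 0.253 in ovary and -0.27 to 0.189 in uterus. The 0.331 of OC1 and OT1 was above the 0.074 to 0.254 of ovary and uterus pairs of the same name. These values therefore cannot settle whether libraries of the same number share more than a number. The block also leaves OT4 without a partner. For the difference between tissues in the OT effect, the count was 0, became 1 with no filter (Gpx6) and was 0 to 1 with 1 mouse left out (Gpx1 without OT4). For uterus against ovary the count of 2 was 1 to 2, since Gpx1 fell to 0.99 without OT1. The cause was not tested.

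Some log2 fold changes near 0 changed sign when 1 library or mouse was left out. For OT against OC they ranged from -0.024 to 0.18 for Gpx1 and -0.10 to 0.14 for Gpx3 in ovary, and from -0.25 to 0.14 for Gpx3 and -0.0161 to 0.30 for Gpx7 in uterus. For the difference of the OT effect between tissues they ranged from -0.73 to 0.21 for Gpx2, -0.37 to 0.19 for Gpx3 and -0.0056 to 0.40 for Gpx8. For uterus against ovary they ranged from -0.12 to 0.13 for Gpx3 and -0.19 to 0.0737 for Gpx4. Depth is unknown, so low values such as those of Gpx6 and of Gpx2 in ovary carry an error that could not be given. The counts of called pathway genes were less stable. Of the list counts under alternatives, 352 stayed within 1.5 times the value given and 96 did not. With 1 library left out, the genes higher in OT uteruses numbered 0 to 4 for the selenocysteine list and for the other selenoproteins, 0 to 2 for glutathione synthesis, 1 to 7 for NADPH supply, 0 to 3 for lipid peroxidation and for folding, and 2 to 8 for the other peroxide-removing enzymes, and the glutathione synthesis genes lower in OT uteruses numbered 0 to 5. In OT ovaries, genes higher numbered 0 to 2 for the selenocysteine, other selenoprotein, NADPH and lipid peroxidation lists, 0 to 1 for folding and 0 to 3 for the other peroxide-removing enzymes, and folding genes lower numbered 0 to 6.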
